A study of Mus musculus with 6106 samples.

Results

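The genes described here encode the proteins of the cytosolic ribosome, followed over 3 bins of an Nr4a1-GFP reporter in splenic regulatory T cells (Tregs). They were taken by name. Every symbol that starts with Rpl or Rps and goes on with a digit was included, together with Rplp0, Rplp1, Rplp2 and Rpsa, and the Rps6k kinases and symbols with -ps, which mark pseudogenes, were left out. This gave 87 of the 23725 genes of the table. Of these, 84 had at least 50 unique molecular identifiers (UMIs, the tags that mark single captured transcripts) in the cells used and are called members below. The 84 comprise 31 proteins of the small subunit (40S), 43 of the large subunit (60S), the 3 proteins of the ribosomal stalk, 6 paralogs of standard ribosomal proteins, and Rps19bp1. Rps19bp1 fits the naming rule but encodes a protein that binds Rps19 and is not itself part of the ribosome. The remaining 3 genes are paralogs: Rpl3l and Rpl37rt had 0 UMIs and Rps4l had 12. Just above the minimum lay Rpl10l, a copy of Rpl10, with 85 UMIs. Measured members lie on 19 chromosomes.

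All cells came from male mice, 10 months old and of a B6 strain with Nr4a1-Gfp and Foxp3-Ires-Thy1.1, so that the cells of every bin carry both reporters. Cells negative for the dead-cell dye DAPI and positive for TCRb, CD4 and FoxP3-Thy1.1 were sorted by GFP into GFPlow (0 to 20%), GFPmed (40 to 60%) and GFPhigh (80 to 100%). Nr4a1 is induced when the T cell receptor (TCR) is engaged, and its reporter is used as a readout of TCR signalling. Each bin was 1 inDrops library, a droplet method for single cells, with 0 replicates, and how many mice a library holds is not stated. No test between bins was therefore possible, and intervals below cover counting error only. The 5435 cells with at least 500 UMIs were used, of which 1537 were GFPmed, 1775 GFPhigh and the others GFPlow. GFPlow, GFPmed and GFPhigh held 2435870, 2512277 and 2270376 UMIs, with means of 1147.4, 1634.5 and 1279.1 UMIs per cell, so GFPmed was the deepest library per cell. All 8 of the T cell and Treg genes checked, such as Foxp3, Cd4 and Cd3e, were detected in every bin. Barcodes found in more than 1 library numbered 95, and 62, 55 and 51 cells of the bins carried one.

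A ribosome joins a 40S subunit, which reads the messenger RNA, with a 60S subunit, which links amino acids. Each ribosomal protein gene supplies 1 of the proteins that bind the ribosomal RNAs, in near equal numbers, and the stalk proteins P0, P1 and P2 recruit elongation factors to the 60S subunit. Most vertebrate ribosomal protein messenger RNAs start with a terminal oligopyrimidine (TOP) tract, a C followed by further C or T bases, through which mTOR and LARP1 adjust their translation. T cells build up their ribosomes when the TCR and mTOR drive growth, and resting T cells keep large stores of these messenger RNAs.

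The start sites of the members at both ends of the order of GFPhigh over GFPlow are printed here, since the TOP tract is the sequence feature by which this gene class is best known. Sequences are RefSeq promoter entries on GRCm38.p6 (mm10 coordinates), 30 bases each, with 20 bases before the annotated start and 10 from the start on. Capitals mark the part of a TOP-type tract that falls in the window. The first 4 were lowest and the last 4 highest among members with a single entry and at least 200 UMIs over both bins.
Rpl13a (chr7:45128736-45128765, minus strand): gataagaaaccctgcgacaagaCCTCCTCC
Rps16 (chr7:28350669-28350698, plus strand): taaagcccgcttctgtcgtgacgtagcact
Rps23 (chr13:90923102-90923131, plus strand): acggggccttcggctgggcggggCTTCCCg
Rps27 (chr3:90213639-90213668, minus strand): acaggatttccgctttcgCTCCTTTCCggc
Rpl26 (chr11:68901546-68901575, plus strand): gagatctcgcggcaacttacagaaccggaa
Rpl37 (chr15:5116593-5116622, plus strand): gaagtagtttcctgggcggaagcttatcca
Rps26 (chr10:128626497-128626526, minus strand): agcgggtcgggcaagccgccggatCCTCTT
Rpl41 (chr10:128549159-128549188, minus strand): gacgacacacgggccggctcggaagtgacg

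RefSeq entries were found for 64 of the 84 members, with 75 starts. A TOP-type tract was a C and at least 4 further C or T. That C had to lie within 5 bases of the annotated start on either side. The run of C or T around it could begin further upstream. Such a tract was present at 41.3% of member starts, against 18.3% of all 32851 starts in the table. Within the 300 bases from 250 before to 50 after the start, on either strand, CGGAAG (the core bound by ETS factors such as GABP) was found at 62.7% of member starts and 16.9% of all starts. AAGATGGC, the core bound by YY1, was found at 10.7% and 2.75%. TATAAA, the TATA box, was found at 9.33% of member starts and 13.6% of all starts. These matches describe letters only, and annotated starts can lie some bases away from those used in T cells. The 29 members with a tract had median log2 ratios of 0.22 (GFPmed over GFPlow), 0.07 (GFPhigh over GFPlow) and -0.15 (GFPhigh over GFPmed). The 35 without had 0.18, 0.02 and -0.14, so the members did not separate by this feature.

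Ribosomal protein genes took a larger share of the captured transcripts in GFPmed than in the bins on either side. The share was 25.50% of UMIs in GFPlow (exact Clopper-Pearson 95% interval 25.44 to 25.55), 29.31% in GFPmed (29.25 to 29.37) and 25.97% in GFPhigh (25.92 to 26.03). The share thus did not follow the order of the reporter. GFPlow and GFPhigh differed by far less than either did from GFPmed. The same was seen cell by cell. The share per cell had a median of 26.2% in GFPlow (quartiles 20.4 and 30.1), 30.2% in GFPmed (25.6 and 33.5) and 25.98% in GFPhigh (21.8 and 29.8). Cells with over 30% of their UMIs on members made up 25.4%, 50.9% and 24.2% of the bins. GFPlow had the widest spread per cell (SD 6.44 percentage points, against 6.28 and 5.81) and the most cells under 20%, namely 23.7% against 10.3% in GFPmed and 16.8% in GFPhigh. The distributions overlapped widely. A cell held on average 292.6, 479.1 and 332.2 UMIs of members beside 854.8, 1155.4 and 946.9 UMIs of all other genes, so that in GFPmed both were more numerous.

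**Figure D1:**
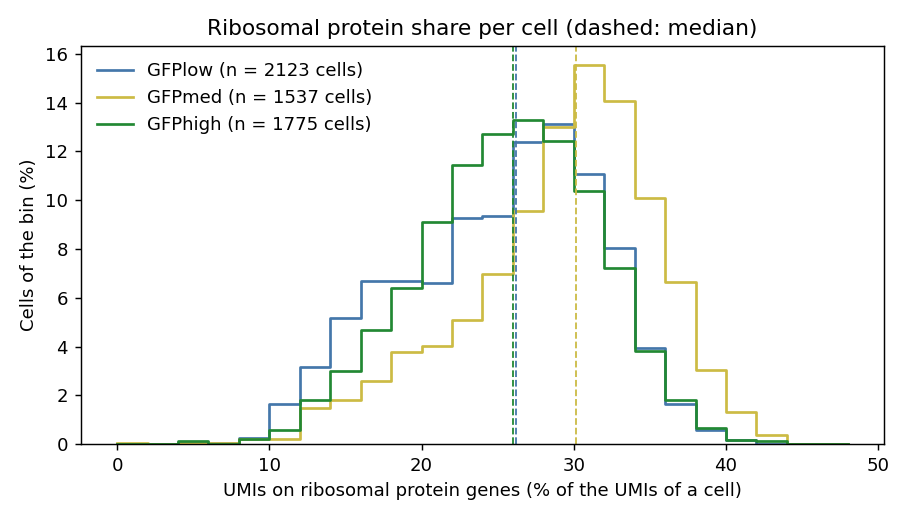
Percentage of cells in each bin (vertical axis) by the percentage of the cell's UMIs that lie on ribosomal protein genes (horizontal axis, steps of 2 percentage points), for the 5435 cells used. Dashed lines are medians: GFPmed stands at 30.2%, while GFPlow and GFPhigh lie at 26.2% and 25.98%, and GFPlow has a broader left side.

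Depth per cell moved with the share and was therefore held level. In cells of 500 to under 750 UMIs the share was 24.2%, 28.9% and 24.9% in GFPlow, GFPmed and GFPhigh. At 1000 to under 1500 UMIs it was 25.9%, 27.9% and 25.8%, and at 1500 to under 2000 UMIs 26.9%, 30.4% and 26.6%. At 750 to under 1000 UMIs the margin was narrow (23.8%, 25.9% and 24.8%), and at 2000 to under 3000 UMIs it was wider (26.1%, 30.8% and 27.4%). GFPmed was highest in each of the 6 depth bands. GFPlow and GFPhigh changed places from band to band. In the band of 3000 UMIs or more GFPlow had 16.3%, from only 9 cells, beside 26.4% and 25.4%.

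**Figure D2:**
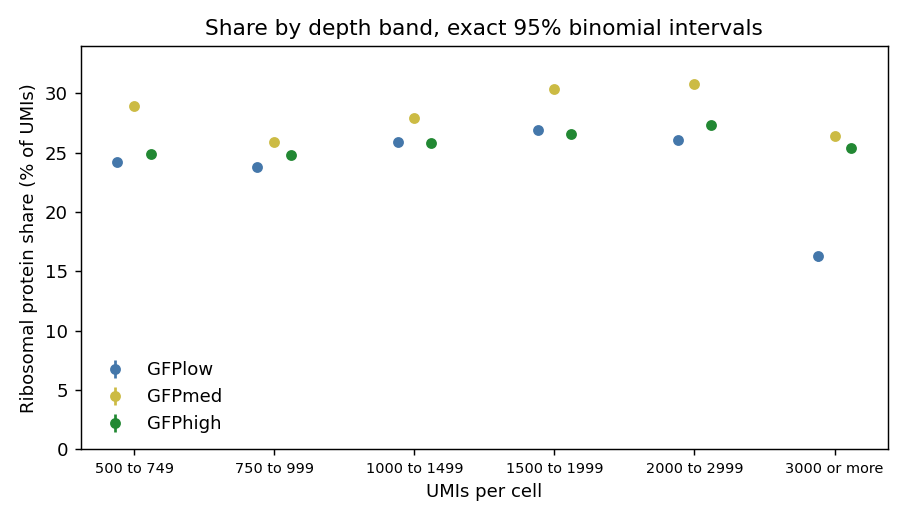
Share of UMIs on ribosomal protein genes (percent, vertical axis from 0) in cells grouped by their UMIs (horizontal axis), one point per bin of the reporter with exact 95% binomial intervals, most of them smaller than the point. GFPmed is the highest point in each band, and the GFPlow point at 16.3% stands for 9 cells.

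Markers of other cell types also differed between the bins. Erythroid genes summed to 1401, 3006 and 1053 UMIs per 1000000 UMIs of the bin (UPM) in GFPlow, GFPmed and GFPhigh, with all 8 detected in each. Myeloid genes summed to 75.1, 224.1 and 81.5 UPM, with S100a8 and S100a9 at 0 UMIs in every bin. B cell genes summed to 137.1, 187.1 and 199.5 UPM, with Pax5 at 0 throughout. Plasma cell genes summed to 142.04, 83.99 and 348 UPM, CD8 T or NK genes to 39, 106 and 41.8 UPM, and platelet genes to 0.821, 1.59 and 0.881 UPM. The erythroid, myeloid and CD8 T or NK sums were thus highest in the bin with the highest ribosomal protein share. Cells with at least 2 UMIs over a shorter list of these markers numbered 41, 70 and 48. The shorter list left out Cd74, Xbp1, Prdm1, Cst3, Itgam, Klrb1c, Klrd1 and Gzma, which are part of the sums above. The ribosomal protein shares of the cells so picked were low, at 20.5%, 22.3% and 22.3%. Without them the shares of the bins were 25.6%, 29.7% and 26.1%.

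Nearly the whole set of members was higher in GFPmed than in GFPlow, by a modest amount. Of the 84 members, 80 were higher, and the 4 that were lower (Rpl27, Rpl10l, Rpl36al and Rps19bp1) differed by at most 0.07 on the log2 scale. Among all 8633 genes with at least 50 UMIs 45.6% were higher, and among the 1062 with at least 1000 UMIs 39.9%. The median log2 ratio of the members was 0.21 (quartiles 0.13 and 0.32), beside -0.04 over all genes with at least 50 UMIs and -0.07 over those with at least 1000. Their summed level was 1.15-fold higher. To set larger differences apart, a size of 25% higher or, the inverse, 20% lower was used. By this size 19 members were higher and 0 lower. Among all genes 15.5% were that much higher and 19.4% that much lower, and 6.12% and 14.2% among genes with at least 1000 UMIs. The members also lay closer together than genes at large, with an SD of their log2 ratios of 0.14 against 0.27 over genes with at least 1000 UMIs.

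GFPhigh and GFPlow were nearly level for the set. In GFPhigh 56 members lay above GFPlow and 28 below; the median log2 ratio was 0.06 and the summed level was 1.02-fold higher. Among all genes 54.6% were higher, and 51.2% of those with at least 1000 UMIs. With TMM scaling, which sets the bulk of genes level, the split was 44 higher and 40 lower. The median over all genes with at least 50 UMIs went from 0.04 to -0.01 under it, so the shares just given do not apply to this split. By 25% or more 6 members were higher (22.2% of all genes, 11% of those with at least 1000 UMIs) and by 20% or more 1 was lower (16.3% and 12.8%). Single members spread from -0.81 to 0.66, and these ends were taken by paralogs with few UMIs.

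Set against GFPmed, GFPhigh had 72 members lower and 12 higher, and the median was -0.15. Among all genes 59.7% were higher in GFPhigh, and 60.2% of those with at least 1000 UMIs, so the members lay on the opposite side from most genes. By 20% or more 9 members were lower (12.8% of all genes, 6.21% of those with at least 1000 UMIs) and by 25% or more 2 were higher (23.4% and 11.9%). With TMM scaling these counts were 22 lower and 1 higher, and with scaling to the UMIs of genes that are not members 20 lower and 1 higher. The shares over all genes given above hold for scaling to all UMIs and do not apply to these rescaled counts. TMM scaling moved the median over all genes with at least 50 UMIs from 0.08 to 0.01. The 3 pairs of bins share libraries, so their values are not independent of each other. All levels are relative: a larger share for ribosomal protein genes means a smaller one for the rest. For 45 members the level was highest in GFPmed and lowest in GFPlow, for 25 it was highest in GFPmed and lowest in GFPhigh, and for 10 it followed the order of the reporter bins.

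**Figure D3:**
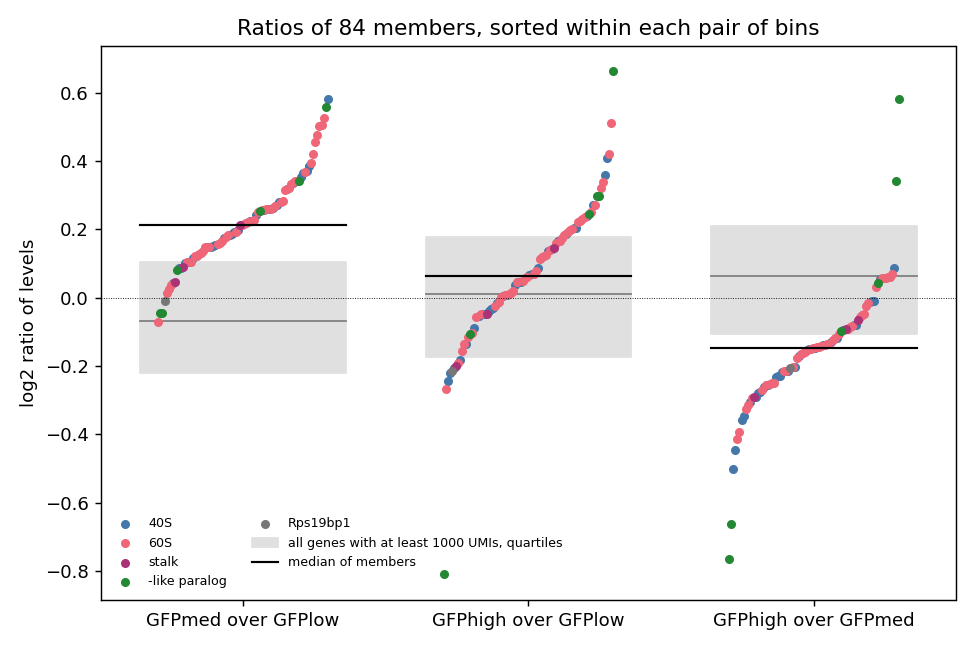
Log2 ratio of levels (vertical axis) of the 84 members for each pair of bins (horizontal axis), sorted within the pair and coloured by role; black lines are the members' medians (0.21, 0.06 and -0.15) and grey boxes the quartiles of 1062 genes with at least 1000 UMIs, with their median. Members sit mostly above the grey box for GFPmed over GFPlow and around or below it for GFPhigh over GFPmed, and -like paralogs take the extremes.

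Proteins of the 40S subunit were without exception, 31 of 31, higher in GFPmed than in GFPlow, and their median log2 ratio was 0.22. Against GFPlow, GFPhigh had 18 of them higher and 13 lower (median 0.04), and against GFPmed 29 of 31 lower (median -0.20). Rps26, which lies where the messenger RNA leaves the subunit, had 1824.8, 2358.8 and 2341 UPM in GFPlow, GFPmed and GFPhigh, so that GFPmed and GFPhigh were alike and GFPlow was low.

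Rps19, a protein of the 40S head whose human gene is the one most often mutated in Diamond-Blackfan anaemia (chr7:24884371-24889806, plus strand), showed the opposite lean. Its levels were 4119, 5308 and 3750 UPM. GFPmed was high and GFPhigh lowest, with -0.50 (-0.54 to -0.46) for GFPhigh over GFPmed, the lowest ratio of that pair among members with at least 200 UMIs. Rps27, a zinc finger protein of the 40S subunit, had 5688, 6722 and 4930 UPM and a ratio of -0.45 (-0.48 to -0.41) for the same pair. Rps16 and Rps23 both reach into the sites where transfer RNAs are held and decoded, and both are among the 5 members with the most UMIs. Rps16 had 6675, 7168 and 5633 UPM, and Rps23 6230, 6414 and 5349 UPM. In these genes GFPhigh lay below GFPlow, by -0.24 for Rps16 and -0.22 for Rps23. Rps13 had 3985, 4501 and 3510 UPM, again lowest in GFPhigh. Rps29, another of the 5, kept the order of the set at 5874, 7317 and 6240 UPM.

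Rps6, the 40S protein phosphorylated by the S6 kinases downstream of mTOR, had 2585, 3093 and 2667 UPM, and its ratio of GFPhigh over GFPlow was 0.05 (-0.01 to 0.10). Rpsa, known also as the laminin receptor, had 3352, 3902 and 3507 UPM. Both followed the course of the set as a whole.

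Of the 43 proteins of the 60S subunit, 42 were higher in GFPmed than in GFPlow (median log2 ratio 0.22). Against GFPlow, GFPhigh had 33 higher and 10 lower (median 0.11), and against GFPmed 7 higher and 36 lower (median -0.14). Rpl31, which sits at the exit of the peptide tunnel, had 1792, 2542 and 2107.6 UPM. Rpl21 (chr5:146832890-146837032, plus strand) had 1069, 1538 and 1227 UPM, Rpl32 1528, 2162 and 1816 UPM. These 3 shared a GFPmed level about 1.4 times that of GFPlow, with log2 ratios of 0.50 (0.45 to 0.56), 0.52 (0.45 to 0.60) and 0.50 (0.44 to 0.56), and GFPhigh in between. Rpl37 had 1490, 2071 and 1993 UPM and was thus low only in GFPlow. Rpl41, which encodes one of the shortest proteins known, had 3931, 4776 and 4968 UPM, with GFPhigh over GFPlow at 0.34 (0.30 to 0.38). Rpl26, a tunnel exit protein, was listed at only 81.3, 111.5 and 115.8 UPM, far below the other 60S genes, the next lowest of which was Rpl29 at 915, 1201 and 1074 UPM. Its ratios of 0.45 (0.19 to 0.73) and 0.51 (0.24 to 0.78) over GFPlow rest on 741 UMIs.

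Other 60S genes were lowest in GFPhigh. Rpl13a, known for its release from the ribosome in the GAIT complex that silences inflammatory messenger RNAs (chr7:45125558-45128761, minus strand), had 5479, 5981 and 4550 UPM. Its ratio of GFPhigh over GFPlow was -0.27 (-0.31 to -0.23), the lowest of the members with at least 200 UMIs. Rpl12, at the base of the stalk (chr2:32961559-32965345, plus strand), had 5918, 7076 and 5312 UPM and a ratio of GFPhigh over GFPmed of -0.41 (-0.45 to -0.38). Rpl5 and Rpl11 carry the 5S ribosomal RNA and, when free, bind Mdm2, the inhibitor of p53. Rpl5 had 3888, 3955 and 3406 UPM, with GFPhigh below both other bins. Rpl11 had 2026, 2243.4 and 2028 UPM, with GFPlow and GFPhigh level.

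Rpl27 and Rpl7a did not share in the higher level of GFPmed. Rpl27 (chr11:101442298-101445529, plus strand) had 2799, 2664 and 2776 UPM, with a ratio of GFPmed over GFPlow of -0.07 (-0.12 to -0.02) that became positive when levels were scaled to the UMIs of genes that are not members. Rpl7a had 2257, 2279.2 and 2329 UPM, and its 3 ratios had intervals that held 0. Rpl27a, with 5567, 5708 and 5383 UPM, was higher in GFPmed by only 0.04 (0.00 to 0.07). In 3 other 60S genes GFPmed lay above GFPlow, and GFPhigh was at or above GFPmed. Rpl6 (2254, 2452 and 2573 UPM), Rpl14 (1531, 1718 and 1789.1 UPM) and Rpl24 (1327, 1589 and 1656 UPM) were highest in GFPhigh, by at most 0.07 over GFPmed. With TMM scaling the ratios of Rpl14, Rpl24, Rpl26, Rpl27 and Rpl41 for GFPhigh over GFPmed changed sign, as did that of Rpl6.

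The stalk holds the most abundant member, and its 3 genes had a median log2 ratio of GFPmed over GFPlow of only 0.09. Rplp1 (chr9:61913284-61914542, minus strand) had the most UMIs of any member, with 8233, 8495 and 7967 UPM, and its log2 ratios were 0.05 (0.02 to 0.07), -0.05 (-0.08 to -0.02) and -0.09 (-0.12 to -0.06). Rplp0 had 3753, 4345 and 4152 UPM, and Rplp2 4038, 4296 and 3512 UPM. Rplp0, the protein on which the P1 and P2 dimers sit, was therefore lowest in GFPlow, and Rplp2 lowest in GFPhigh, with ratios of GFPhigh over GFPlow of 0.15 (0.10 to 0.19) and -0.20 (-0.24 to -0.16). Levels are UMIs of transcripts tagged at the 3′ end and were not divided by gene length, and reads of near-identical copies (below) affect comparisons between genes.

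**Figure D4:**
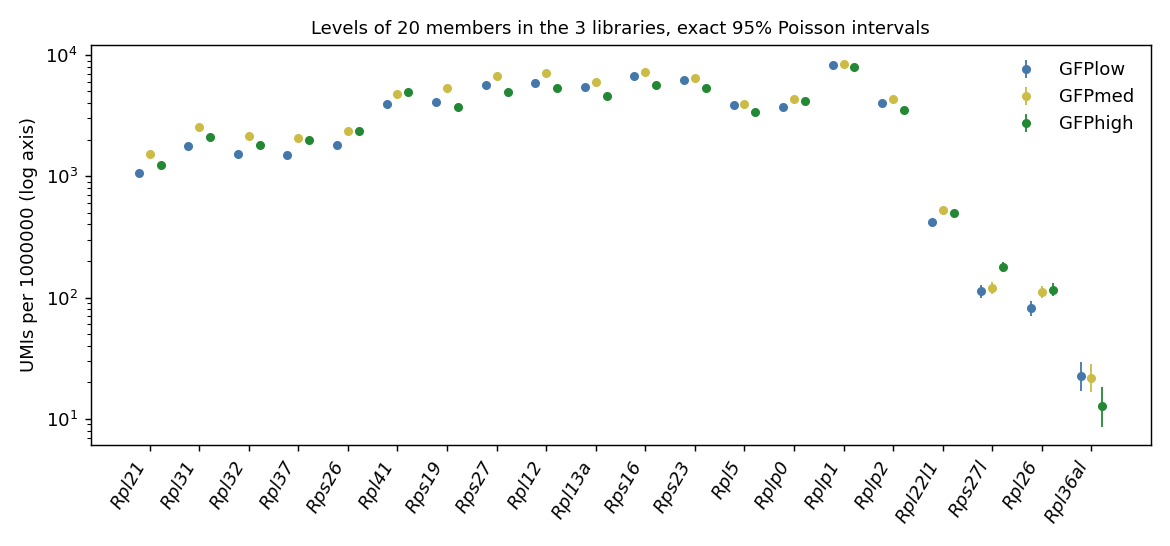
Levels in UMIs per 1000000 UMIs (vertical log axis) of 20 members in GFPlow, GFPmed and GFPhigh, with exact 95% Poisson intervals. From left, Rpl21 to Rpl41 are lowest in GFPlow, Rps19 to Rplp2, Rplp0 apart, are lowest in GFPhigh, and among the low-level genes at the right Rps27l is highest in GFPhigh.

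The ratios over GFPlow varied with the level of the member. Among the 77 standard members the Spearman correlation of the mean level and the log2 ratio was -0.46 (GFPmed over GFPlow), -0.64 (GFPhigh over GFPlow) and -0.27 (GFPhigh over GFPmed), where the points are genes measured in the same 2 libraries. The 25 members with the lowest level had a median of 0.32 (GFPmed over GFPlow) and 0.20 (GFPhigh over GFPlow), and 24 of them were higher in GFPhigh than in GFPlow. The 26 with the highest level had medians of 0.16 and -0.02, with 12 higher. For the middle 26 the medians were 0.22 and 0.01. For GFPhigh over GFPmed the medians of the lowest, middle and highest groups were -0.15, -0.18 and -0.14, which did not follow the order of levels. The near balance of GFPhigh and GFPlow thus joined a group of lower-level members that were higher in GFPhigh with a group of abundant ones that were on balance level.

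Paralogs are relatives of ribosomal protein genes that can replace the standard protein or act outside the ribosome. Rps27l, a relative of Rps27 known as a target of p53 (chr9:66946086-66949516, plus strand), was the member with the highest ratio of GFPhigh over GFPlow. Its levels were 112.9, 119.4 and 178.8 UPM, with ratios of 0.66 (0.44 to 0.89) over GFPlow and 0.58 (0.36 to 0.80) over GFPmed. Its parent Rps27 went the other way in the same libraries, as given above. Rpl22l1, the paralog of Rpl22, a protein needed in the development of alpha beta T cells, had 417, 528 and 494 UPM beside 1821, 2031.2 and 1749 UPM for Rpl22. GFPhigh over GFPlow was 0.24 (0.12 to 0.37) for Rpl22l1 and -0.06 (-0.12 to 0.00) for Rpl22. Rpl7l1 had 87.03, 103.9 and 107.03 UPM, beside 3837, 4251 and 4176 UPM for Rpl7.

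The other paralogs were scarce. Rpl36al, an intronless copy of the X-linked Rpl36a, had 22.6, 21.9 and 12.8 UPM, with GFPhigh over GFPlow at -0.81 (-1.52 to -0.15), against 0.07 (0.01 to 0.13) for Rpl36a at 1719, 1921 and 1803 UPM. Rpl39l, known mainly from testis, had 18.1, 26.7 and 16.7 UPM beside 3180, 3722 and 3128 UPM for Rpl39. Rpl10l had 11.1, 10.7 and 13.7 UPM beside 3952, 4244 and 4003 UPM for its X-linked parent Rpl10, and each of its ratios had an interval that held 0. Rps19bp1 had 16.4, 16.3 and 14.1 UPM, with all intervals holding 0. Rps4l had 2.87 and 1.99 UPM in GFPlow and GFPmed and 0 UMIs in GFPhigh, which allows up to 1.32 UPM, and its X-linked parent Rps4x had 3564, 4162 and 3483 UPM. Rpl3l, a striated muscle form, had 0 UMIs in each library, which allows up to 1.23, 1.19 and 1.32 UPM, while Rpl3 had 1493, 1799 and 1627 UPM.

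Many ribosomal protein genes have near-identical processed copies in the mouse genome, and GENCODE M21 holds -ps models for 60 of the 84 members. The rule by which reads that fit several places were assigned is not given in the sources used here. The levels of members with copies, under -ps or other names, are therefore uncertain. The 60 had a median of 0.22 for GFPmed over GFPlow and the 24 without such models 0.19. For GFPhigh over GFPlow the medians were 0.07 and 0.01. This split rests on -ps names only and does not separate members with copies from members without. Rpl22l1 and Rps20 are among the 24, yet each had a copy under another kind of name. Of the genes of the table that GENCODE calls pseudogenes, 84 had at least 50 UMIs, and 16 of them resembled the messenger RNA of 14 members over at least 150 bases at 85% identity or more. These 16 took 8529, 11392 and 9781 UPM, again highest in GFPmed. Copies held 48.9% of the joint UMIs of Rpl22l1 and its copy, 44.9% for Rps26, 41.7% for Rpl31, 38.9% for Rps15a, 31.8% for Rpl17, 16.1% for Rps2, 15.3% for Rps19 and 11.8% for Rpl29. With copies added, the ratios of GFPmed over GFPlow, GFPhigh over GFPlow and GFPhigh over GFPmed were 0.42, -0.09 and -0.51 for Rps19. Without them they were 0.37, -0.14 and -0.50. Rpl31 had 0.53, 0.21 and -0.32 with copies, against 0.50, 0.23 and -0.27. For Rpl17, GFPhigh over GFPlow went from 0.05 (0.01 to 0.09) to -0.01 (-0.04 to 0.02) when copies were added. The members' median for that pair was 0.06 with and without copies.

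Proteins made from fused or differently named genes are also part of the ribosome but fall outside the naming rule. Fau, which encodes the 40S protein eS30 fused to a ubiquitin-like domain, had 1730, 2243.8 and 2033.6 UPM, with GFPmed over GFPlow at 0.38 (0.32 to 0.43). Gnb2l1, the 40S scaffold Rack1, had 3750, 4315 and 3899 UPM, a ratio of 0.20 (0.16 to 0.24). The same order of bins as in most members was thus seen in Fau and Gnb2l1.

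The lists of other genes tied to ribosome production had lower medians for GFPmed over GFPlow than the members (0.21). Host genes of small nucleolar RNAs came closest, at 0.18. In the list of 20 other genes whose messenger RNAs begin with a TOP sequence (translation factors and the genes above among them), 10 lay above and 10 below their GFPlow level in GFPmed (median 0.03). In GFPhigh over GFPlow 16 of the 20 were higher, with a median of 0.11. Among all genes with at least 50 UMIs 45.6% were higher in GFPmed and 54.6% in GFPhigh than in GFPlow. Hnrnpa1, an RNA-binding protein, had 204.03, 225.3 and 317 UPM, a ratio of GFPhigh over GFPlow of 0.63 (0.47 to 0.80). Eif4a2, an RNA helicase of translation initiation, had 333, 251.2 and 277 UPM, the opposite course. Eef1d, a subunit of the elongation factor exchange complex, had 171.2, 220.9 and 205 UPM.

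The 58 ribosome biogenesis genes, which make and process ribosomal RNA and assemble subunits, had medians of -0.02 for GFPmed over GFPlow, with 27 higher, and 0.06 for GFPhigh over GFPlow, with 37 higher. The shares higher over all genes with at least 50 UMIs were 45.6% and 54.6%. In GFPhigh 14 of the 58 were higher than in GFPlow by 25% or more and 5 lower by 20% or more, where 22.2% and 16.3% of all genes were, so the count of higher genes was near the background. Mphosph10, of the small subunit processome, had 19.7, 30.6 and 33.9 UPM, a ratio of GFPhigh over GFPlow of 0.78 (0.24 to 1.33). Heatr1, of the same complex, had 30.8, 33.4 and 49.8 UPM. Wdr75 had 31.2, 27.1 and 18.5 UPM and Rrs1 41.5, 26.3 and 29.5 UPM. These genes were picked by the size of their ratios, so their opposed courses do not show how far the list moved together. Nop2, an RNA methyltransferase, had 22.2, 34.2 and 25.5 UPM.

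Of 77 mitochondrial ribosomal protein genes 76 were measured. Their median was 0.04 for GFPmed over GFPlow, with 45 higher, and 0.16 for GFPhigh over GFPlow, with 56 higher. Over all genes with at least 50 UMIs the shares higher were 45.6% and 54.6%, with medians of -0.04 and 0.04. Against GFPmed, GFPhigh had 49 of the 76 higher (median 0.10), near the 59.7% and 0.08 over all genes with at least 50 UMIs. Mrps6 (50.9, 50.9 and 80.2 UPM) and Mrpl45 (31.6, 31.05 and 51.1 UPM) were high in GFPhigh alone, and Mrpl32 (31.6, 49.8 and 46.2 UPM), Mrpl21 (15.6, 27.1 and 20.3 UPM) and Mrps11 (18.9, 27.1 and 21.6 UPM) were lowest in GFPlow. For GFPhigh over GFPlow the intervals were -0.27 to 1.04 for Mrpl21 and -0.42 to 0.81 for Mrps11. For GFPmed over GFPlow that of Mrps11 was -0.04 to 1.09, so the order of bins is uncertain for both genes.

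Among 17 measured regulators of ribosomal protein synthesis the medians were -0.11 (GFPmed over GFPlow) and 0.14 (GFPhigh over GFPlow). Myc, which drives transcription of ribosomal protein and biogenesis genes, had 114.5, 152.1 and 196 UPM and followed the order of the reporter, with GFPhigh over GFPlow at 0.77 (0.56 to 1.0). Sesn3, an inhibitor of mTOR signalling, had 44.3, 30.6 and 48.9 UPM, and Larp4, an RNA-binding protein that protects poly(A) tails, 51.7, 38.6 and 50.7 UPM. Both were lowest in GFPmed. Rps6ka1, a kinase of Rps6, had 242.6, 224.1 and 312 UPM, and Trp53, which encodes p53, 146.6, 130 and 168.7 UPM.

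The 10 measured host genes of small nucleolar RNAs, whose own transcripts mostly begin with TOP tracts, had medians of 0.18 and 0.12, with 8 higher in each of GFPmed and GFPhigh than in GFPlow. Of all genes with at least 50 UMIs, 45.6% and 54.6% were higher. Gas5, the most abundant of those named, had 358, 415 and 424 UPM. Snhg5 (21.3, 27.5 and 28.2 UPM) and Snhg3 (24.2, 29.1 and 25.5 UPM) were lowest in GFPlow, and Snhg12 (48.9, 50.2 and 38.8 UPM) and Epb41l4aos (50.1, 58.9 and 44.5 UPM) lowest in GFPhigh, with intervals for GFPhigh over GFPlow that held 0 in all 4. The 8 assembly partners that escort single ribosomal proteins, Rps19bp1 included, had medians of -0.04 and 0.11. Pdcd2, the partner of Rps2, had 51.3, 39.4 and 38.8 UPM, Bccip, the partner of Rpl23, 36.5, 34.6 and 43.6 UPM, and Aamp 110, 103.5 and 107.5 UPM.

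Within each bin, cells that carried effector genes had a low ribosomal protein share. Every cell was thinned at random to 500 UMIs, and those with at least 2 UMIs over 8 effector genes (S100a4, S100a6, Ccr2, Itgb1, Itgae, Klrg1, Lgals1 and Il1rl1) were set apart. They numbered 366 in GFPlow (17.2% of the bin), 110 in GFPmed (7.16%) and 84 in GFPhigh (4.73%). Their mean thinned share was 18.5% (SD 5.22 over cells) in GFPlow, 22.3% (7.05) in GFPmed and 20.5% (6.64) in GFPhigh, beside 26.6%, 29.6% and 25.9% in the other cells of the same bins. Without thinning, the summed shares were 18.4%, 22.3% and 20.3% inside and 26.9%, 29.8% and 26.3% outside. Gate and thinned share were read from the same 500 UMIs, which the unthinned shares also include. A cell with fewer UMIs on members thus had more room for gate UMIs, which builds some lowering of the share into any gate. How much was not tested, and the limit holds for every gate below and for single members in gated cells. Median UMIs per cell were 1041, 1352 and 1217 inside and 1098, 1561 and 1123 outside, so depth differed in both directions. This group is a range of cells rather than a type: 34.7%, 55.5% and 58.3% of its cells had exactly 2 effector UMIs, and 16.7%, 10.7% and 10.3% of the cells outside had 1. The gated cells held a median of 1, 1 and 0 UMIs of 9 resting genes.

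The lower share of these cells extended over the whole class. Among the 77 members with at least 1000 UMIs, 77 were lower in effector-gated cells than in the other cells of GFPlow, where 37.5% of genes with at least 1000 UMIs were lower, with the gating genes left out. The same was found for 77 of 77 in GFPmed (39.5% of genes) and 77 of 77 in GFPhigh (50% of genes). Median log2 ratios of the members were -0.56, -0.43 and -0.39, beside 0.12, 0.10 and 0.00 over all such genes. Among those with the lowest ratios in GFPlow were Rps20 (1860.7 UPM in gated and 3424 UPM in other cells), Rps19 (2481 and 4445 UPM) and Rps7 (3309 and 5771 UPM). Rpl22l1 was nearest to level, with 378 and 425 UPM (-0.16, -0.43 to 0.08), followed by Rps12 with 2901 and 3362 UPM. In GFPhigh the lowest was Rps25, with 1129 and 1851 UPM. These genes at the ends were picked by their values and the ratios compare cells of 1 library.

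Cells with at least 2 UMIs over 9 TCR-stimulated genes (Nr4a1, Egr1, Egr2, Tnfrsf9, Cd83, Irf4 and Myc, with Nr4a3 and Egr3 at 0 UMIs) made up 2.59%, 4.23% and 11.7% of the bins. Their mean thinned shares were 23.98%, 24.2% and 22.5%, beside 25.2%, 29.3% and 26.1% in other cells. In GFPhigh all 77 members with at least 1000 UMIs were lower in them, with a median of -0.21, where 53.4% of genes were lower. Rps20 had the lowest ratio there, with 2807 UPM inside and 3576 UPM outside. Of the gated GFPhigh cells 51.7% had exactly 2 UMIs of the list and 13 also passed the effector gate, and 17.03% of the cells outside had 1 UMI. Unthinned shares were 23.96%, 25.8% and 23.1% inside and 25.5%, 29.5% and 26.4% outside.

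Cells with at least 2 UMIs of 9 cycling genes such as Mki67 and Top2a numbered 52, 25 and 45. Their shares were low as well, at 20.1%, 23.3% and 23.6% thinned and 18.4%, 20.5% and 21.9% unthinned, and 19, 5 and 6 of them also passed the effector gate. Cells with at least 2 UMIs of 9 resting genes such as Ccr7 and Klf2 numbered 1003, 698 and 703. They had the higher shares, 26.4%, 30.5% and 26.3% thinned, against 24.2%, 27.9% and 25.3% in the rest, and 26.7%, 30.9% and 26.7% against 24.4%, 28.1% and 25.6% unthinned. The difference between resting-gated cells and the rest was thus smaller than that set by the effector gate.

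When the cells of the effector and TCR-stimulated gates were both left out, a step added after seeing the data, the shares were 26.97% in GFPlow, 29.95% in GFPmed and 26.7% in GFPhigh. GFPmed remained the highest, and GFPlow then lay above GFPhigh. Without these cells 10 members were at least 25% higher in GFPmed than in GFPlow, against 19 with them, while the median log2 ratio of the members was 0.17, against 0.21.

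**Figure D5:**
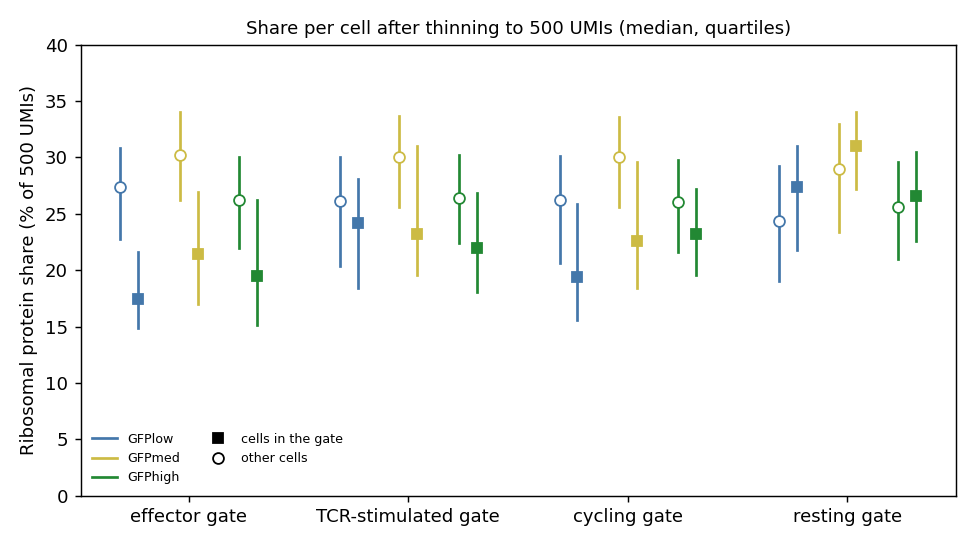
Percentage of UMIs on ribosomal protein genes per cell after thinning to 500 UMIs (vertical axis from 0) for cells inside each gate (filled squares) and the other cells of the same bin (open circles), as medians with lines from the lower to the upper quartile over cells. The effector gate shows the widest gap, down to a median of 17.4% in GFPlow against 27.4% outside it, and the resting gate alone lies above its other cells in each bin.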

How the data were processed

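Single-cell RNA of sorted splenic Tregs was measured with inDrops on a NextSeq500, 1 library per GFP bin, per the labels' protocols. The authors deposited raw UMI counts per gene and cell, made with TopHat2, SAMtools and mm10 per the submitters' processing notes; versions, annotation, counting program and UMI rule are not given in the sources used here. The 6106 cell columns each matched a label, and the table sums to 98.7% of the UMIs given there. Counts were summed per bin over cells with at least 500 UMIs (249, 145 and 277 cells left out), scaled to UPM, and compared as log2 ratios after adding 0.5 UMI, with Python 3.11.15, numpy 2.4.6, scipy 1.17.1, pandas 2.3.3 and, for TMM scaling, edgeR 4.0.16 in R 4.3.3. Intervals are exact at 95%: Poisson for levels, conditional binomial for ratios, Clopper-Pearson for shares. A count of 0 was given a limit of 3 counts. Doublets were not removed. The procedure was tested on simulated data. Gene positions are from GENCODE M21.

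The members and lists were chosen with earlier results of these data known. Named were the 6 highest and 6 lowest members per pair of bins with at least 200 UMIs, the 5 with most UMIs, stalk genes, Rpsa, Rpl5, Rpl11, Rps6, Rps19, Fau, Gnb2l1, Rps19bp1, paralogs with their parents, members next to the minimum of 50 UMIs, and per related list the 3 genes with the largest absolute ratio of GFPmed and of GFPhigh over GFPlow with at least 100 UMIs. Genes named from the gates, the promoter windows and the copies fall outside this rule and were chosen after their values were seen. Some genes that the rule names are not reported here. Alternatives on cells, weights, scaling, minimum counts and added UMIs are in the closing section.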

Additional observations from a re-analysis of the deposited data

Results flagged for a closer look

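Cells under 500 UMIs were left out of the main comparisons and entered the alternative with all cells, given below. They too held signal on ribosomal protein genes. In these cells of GFPlow, GFPmed and GFPhigh the share was 23.2%, 26.4% and 24.5% of UMIs, again highest in GFPmed.

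The 6 genes of the table with -ps symbols of ribosomal proteins, left out by the naming rule, held 3629 UPM in GFPlow, 5250 UPM in GFPmed and 4363 UPM in GFPhigh.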

How the results depend on the processing

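Each bin is 1 library, so no replicate could be left out and no paired analysis was possible because the bins share only 1 replicate number. No median ratio changed sign under any alternative run, and GFPmed had the highest share in all of them. Shares in GFPlow, GFPmed and GFPhigh were 25.4%, 29.2% and 25.9% with all cells, 26.1%, 29.5% and 26.3% with at least 1000 UMIs per cell, 25.6%, 29.7% and 26.1% without cells holding markers of other types, 25.7%, 29.7% and 26.1% without the deepest 1% of cells, 25.2%, 29.1% and 25.7% with equal weight per cell, 26.97%, 29.95% and 26.7% without effector and TCR-stimulated gates, and 26.4%, 30.4% and 26.95% with copies added; the last 2 were chosen after seeing the data. In cells of 1000 to 2000 UMIs GFPlow had 26.3% and GFPhigh 26.2%. TMM scaling gave medians of 0.013 (GFPhigh over GFPlow) and -0.22 (GFPhigh over GFPmed), and 23 members at least 25% higher or 20% lower (counted as past the size limit) in the latter pair. Scaling to genes that are not members gave 0.29 and 35 members past that limit for GFPmed over GFPlow, and -0.21 and 21 for GFPhigh over GFPmed. Without both gates the median of GFPhigh over GFPlow was 0.015 and GFPmed over GFPlow had 10 members past that limit; cells of 1000 to 2000 UMIs also gave 10. Members with at least 1000 UMIs gave 4 past that limit for GFPhigh over GFPlow and 7 for GFPhigh over GFPmed. Leaving out paralogs and Rps19bp1 gave 7 for GFPhigh over GFPmed, a pair in which 4 of the 6 paralogs were past that limit. The cause of the shifts was not tested. Shares over all genes are not given for the alternatives, so their counts of members cannot be set against genes at large. Of the remaining values, 43 medians, 40 counts and 4 shares stayed near the main ones. Single ratios of genes under about 1000 UMIs are limited by depth.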
